A study of Mus musculus with 10 samples.

Results

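Transcripts of 9 genes of type 2 immunity were followed across T cells taken from mouse melanomas: the transcription factor gene Gata3, the cytokine genes Il4, Il5 and Il13, the receptor genes Il1rl1, Il17rb, Il4ra and Ccr4, and the growth factor gene Areg. The genes were chosen by symbol, as cytokines, regulator and receptors of this program, and all 9 of the 48825 genes listed in the table were found and had enough signal to be tested. Il13, the cytokine best known for acting on epithelium and macrophages, was above all 3 Control libraries in all 7 libraries from treated mice. This held for 0.923% of all genes tested, and 4.19% to 11.6% stood wholly above Control in single treatments. The lowest treated libraries for Il13, at 127 and 128 counts, lay just over the highest Control library, at 125. The difference in Il13 did not pass the test over all genes in any comparison. The other 8 genes overlapped between every treatment and Control, and none of the 9 passed.

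Type 2 helper T cells are made when GATA3, the protein of Gata3, opens a locus that holds Il4, Il13 and Il5 side by side. Interleukin 4 and interleukin 13 both signal through the chain encoded by Il4ra, while interleukin 5 acts mainly on eosinophils. ST2, the protein of Il1rl1, is the receptor for interleukin 33, an alarm signal of damaged tissue. It is carried by type 2 helper cells, type 2 innate lymphoid cells, mast cells and many regulatory T cells of tissues, and the last of these also make amphiregulin, the product of Areg.

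The tumors arose in mice whose alleles include BrafCA and Tyr::CreER, in which the promoter of the melanocyte gene Tyr drives a tamoxifen-inducible Cre that activates oncogenic Braf. All 4 groups carry the same alleles, although the labels give the genotype as wild type, and the mice were age-matched with no age stated. From day 30 after local tumor induction, CSF1Ri mice ate chow with the CSF1R inhibitor PLX6134 at 600 mg/kg (2 libraries), CD40 mice received the agonistic CD40 antibody FGK4.5 at 10 mg/kg (3 libraries), CSF1Ri+CD40 mice received both (2 libraries), and Control mice had normal chow (3 libraries). Mice without the antibody received PBS as its vehicle where the labels give one. For all 4 groups the labels give a treatment of at most 30 days and a tumor volume of at most 100 cubic mm at its start. CSF1R is the growth factor receptor on which macrophages depend, and CD40 is a receptor through which dendritic cells, macrophages and B cells are activated, so the comparisons ask what treatments aimed at myeloid cells do to these T cell transcripts. A library is named by its group and the number in its title, and the CSF1Ri library without a number is called CSF1Ri 1. Each library pooled at least 3 tumors, so the p-values measure the spread between pools.

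The values are read counts that the authors scaled between libraries and rounded, called normalized counts here. They summed to between 11538244 and 14024851 per library, and the spacing of the low values gave an estimated depth of 10300000 to 15000000 reads in genes for 8 libraries, with no estimate for CD40 3 and Control 1. The titles name T cells and the tissue label names macrophages. The 18 T cell markers summed to between 129367 and 208353 normalized counts per library and the 12 macrophage markers to between 705 and 4558. Transcripts of the Y chromosome were present in CD40 2, CD40 3 and Control 1 and summed to at most 1 in the other libraries. CD40 3 had the most Malat1, a nuclear RNA, at 95260 normalized counts. Hemoglobin transcripts, a sign of red blood cell RNA, were below every Control library in all 7 treated libraries. In such mixed RNA, fewer cells of a type and less RNA per cell cannot be told apart.

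Il4, Il13 and Il5 lie on chromosome 11 in GRCm38, at 53602982 to 53618669, 53631324 to 53634702 and 53720794 to 53725106. Il4 and Il13 are read from the minus strand 12.7 kb apart, and Il5 from the plus strand, 86.1 kb beyond Il13 and past Rad50, a DNA repair gene. Il1rl1 lies on chromosome 1 at 40429570 to 40465415 and has a pair of start sites, of which the upstream one is the start of the annotated gene. The promoters of the cytokine genes and of ST2 are shown because they are where GATA3 and STAT6, the signal transducer of the interleukin 4 receptor, are known to act on type 2 genes. Each is the 250 bases before a transcript start, 5′ to 3′ on the strand of the gene, from RefSeq on GRCm38.p6. Capitals mark matches on either strand to a GATA or a STAT6 motif. The GATA motif was searched as AGATAA, with AGATAG as its variant, and likewise as TGATAA, with TGATAG as the variant. The STAT6 motif was searched as TTCNNNNGAA.
Il13, chr11:53634703-53634952, minus strand: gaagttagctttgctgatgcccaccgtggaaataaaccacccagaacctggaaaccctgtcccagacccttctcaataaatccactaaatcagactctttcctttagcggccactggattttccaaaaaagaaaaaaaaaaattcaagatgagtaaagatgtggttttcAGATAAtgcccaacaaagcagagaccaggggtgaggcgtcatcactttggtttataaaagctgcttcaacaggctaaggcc
Il5, chr11:53720544-53720793, plus strand: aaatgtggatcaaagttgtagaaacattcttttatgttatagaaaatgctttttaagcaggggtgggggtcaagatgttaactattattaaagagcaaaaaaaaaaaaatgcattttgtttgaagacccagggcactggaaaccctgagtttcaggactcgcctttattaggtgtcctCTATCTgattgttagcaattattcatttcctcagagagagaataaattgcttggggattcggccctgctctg
Il4, chr11:53618666-53618915, minus strand: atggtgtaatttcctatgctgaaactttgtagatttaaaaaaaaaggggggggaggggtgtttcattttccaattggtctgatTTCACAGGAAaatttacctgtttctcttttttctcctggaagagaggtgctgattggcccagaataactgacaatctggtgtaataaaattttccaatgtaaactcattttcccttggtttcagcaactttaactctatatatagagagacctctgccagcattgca
Il1rl1, upstream start, chr1:40429320-40429569, plus strand: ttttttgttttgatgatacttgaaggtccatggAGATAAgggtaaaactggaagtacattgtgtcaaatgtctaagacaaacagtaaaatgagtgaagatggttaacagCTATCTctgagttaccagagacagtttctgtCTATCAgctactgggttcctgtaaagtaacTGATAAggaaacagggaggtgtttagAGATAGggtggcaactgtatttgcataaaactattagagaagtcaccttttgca
Il1rl1, downstream start, chr1:40439379-40439628, plus strand: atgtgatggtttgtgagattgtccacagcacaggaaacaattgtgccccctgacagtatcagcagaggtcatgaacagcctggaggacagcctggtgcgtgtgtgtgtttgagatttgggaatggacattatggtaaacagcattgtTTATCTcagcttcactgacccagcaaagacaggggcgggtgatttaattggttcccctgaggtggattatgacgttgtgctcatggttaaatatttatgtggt

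The Il13 window held 1 GATA match, 81 bases before the start, and the Il5 window 1, beginning 72 bases before it. The Il4 window shown held a STAT6 match and no GATA match, while the window of a downstream Il4 start, not shown, held 1 GATA match and no STAT6 match. The window of the upstream Il1rl1 start held 5 GATA matches and that of its downstream start 1. At least 1 GATA match was present in 26.5% of all 32851 promoter windows of this length in the table, at least 5 in 0.0426%, and a STAT6 match in 5.85%. A match describes the letters only. All 9 genes had a window, 11 in all, of which 5 held a GATA match and 1 a STAT6 match. Counts are given per gene, so reads from the upstream and downstream starts of Il1rl1, and from the soluble and membrane forms of ST2, are not separated.

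**Figure D1:**
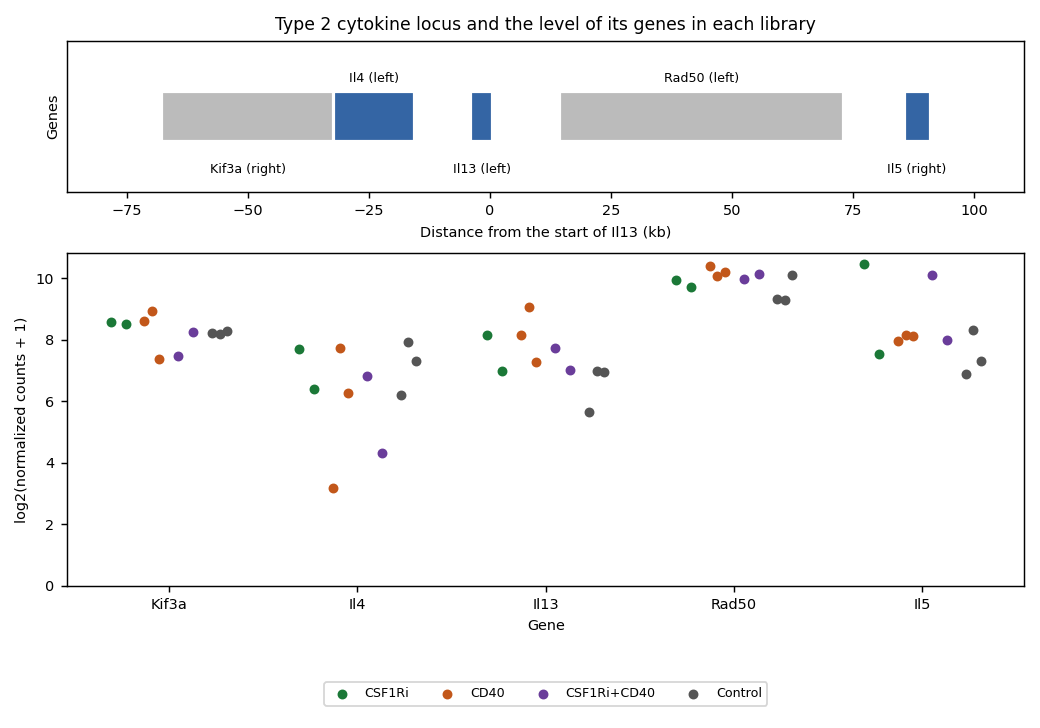
Top: the type 2 cytokine locus drawn to scale, with distance from the start of Il13 in kb and the direction of reading in brackets; members are blue and the flanking genes Kif3a and Rad50 grey. Bottom: each point is 1 library, as log2(normalized counts + 1), colored by group; the Il13 points of the treated groups all lie above those of Control, and Il5 has 1 high point in CSF1Ri and 1 in CSF1Ri+CD40.

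Of the cytokine genes, Il13 was the one whose treated libraries all stood above Control. Il13 had 284 and 127 normalized counts in the CSF1Ri libraries 1 and 6, 282, 535 and 155 in the CD40 libraries 1, 2 and 3, and 213 and 128 in the CSF1Ri+CD40 libraries 1 and 3, against 49, 125 and 122 in the Control libraries 1, 2 and 3. No treated library overlapped Control, but CSF1Ri 6 and CSF1Ri+CD40 3, at 127 and 128, lay just over the highest Control library, at 125. Group means were 206 ± 111 in CSF1Ri (SD, n = 2), 324 ± 193 in CD40 (SD, n = 3) and 171 ± 60.1 in CSF1Ri+CD40 (SD, n = 2), against 98.7 ± 43.0 in Control (SD, n = 3). The log2 fold change over Control, fitted on log2(normalized counts + 1), was 1.64 ± 0.58 (SE) in CD40, with an adjusted p = 0.722 in limma with Benjamini-Hochberg adjustment over 15716 genes. It was 1.06 ± 0.65 in CSF1Ri (adjusted p = 1.0, limma) and 0.86 ± 0.65 in CSF1Ri+CD40 (adjusted p = 0.932, limma). The unadjusted p in CD40 was 0.016 (limma), and it was the only one of the 9 genes with an unadjusted p under 0.05 in the 3 comparisons with Control. For the CD40 comparison 6.39% of all genes had an unadjusted p under 0.05.

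Il13 was also the only member whose groups did not overlap in any comparison with Control. Of all genes tested, 11.6% stood wholly above Control in CSF1Ri, 4.19% in CD40 and 10.6% in CSF1Ri+CD40, while 10.3%, 4.91% and 9.6% stood wholly below. All 7 treated libraries were above all Control libraries for 0.923% of genes and below them for 1.08%. The mean of the 3 treated groups over Control, a comparison chosen after the Il13 values were seen, gave a log2 fold change of 1.19 ± 0.49 (SE), an unadjusted p = 0.0347 and an adjusted p = 0.811 (limma). In it 5.79% of all genes had an unadjusted p under 0.05 and 0.0% an adjusted one. Among libraries with Y-linked transcripts, the treated ones had 155 to 535 normalized counts and the Control one had 49. Among those without, the treated ones had 127 to 284 and the Control ones 122 and 125. Single libraries weighed on these values. Without Control 1 the fitted log2 fold change of this mean was 0.75, and those of CSF1Ri and CSF1Ri+CD40 were 0.62 and 0.42. Without CSF1Ri 1 the CSF1Ri value was 0.48, and without CSF1Ri+CD40 1 the CSF1Ri+CD40 value was 0.49. The effect of the antibody with the inhibitor minus its effect without it, the interaction, was -1.85 ± 0.92 (SE) on the log2 scale for Il13 (adjusted p = 0.991, limma).

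The high values of Il5 came from a single library in each group with the inhibitor. It had 1402 and 184 normalized counts in CSF1Ri 1 and 6, 250, 285 and 279 in the CD40 libraries, and 1098 and 256 in CSF1Ri+CD40 1 and 3, against 118, 319 and 158 in the Control libraries. CSF1Ri 1 and CSF1Ri+CD40 1 stood far above all the others, the CD40 libraries lay close together, and every treated group overlapped Control. The log2 fold change was 1.48 ± 0.80 (SE) in CSF1Ri (adjusted p = 1.0, limma), 0.58 ± 0.72 in CD40 (adjusted p = 0.898, limma) and 1.54 ± 0.80 in CSF1Ri+CD40 (adjusted p = 0.925, limma). Without CSF1Ri 1 the first was 0.02, and without CSF1Ri+CD40 1 the last was 0.50. Gm12214, an annotated antisense RNA, overlaps 27.1% of the exon bases of Il5, and the libraries carry no strand information. Its counts were 771 and 94 in CSF1Ri 1 and 6, 142, 141 and 130 in the CD40 libraries and 566 and 110 in CSF1Ri+CD40 1 and 3, against 64, 183 and 75 in the Control libraries. Within that overlap, reads from Il5 and from Gm12214 cannot be told apart.

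Il4, which drives the type 2 fate and class switching of B cells, had the widest spread among the cytokines. It had 209 and 84 normalized counts in CSF1Ri, 8, 214 and 76 in CD40 and 111 and 19 in CSF1Ri+CD40, against 72, 244 and 159 in Control. The lowest values were in CD40 1 and CSF1Ri+CD40 3, and all groups overlapped. Fitted log2 fold changes were -0.09 ± 1.22 (SE) in CSF1Ri (adjusted p = 1.0, limma), -1.42 ± 1.09 in CD40 (adjusted p = 0.859, limma) and -1.58 ± 1.22 in CSF1Ri+CD40 (adjusted p = 0.932, limma). In CD40 1 the 3 cytokine genes were far apart, with 8 counts of Il4 beside 282 of Il13 and 250 of Il5.

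Gata3 was the member with the highest level per length and the smallest spread. It had 2269 and 1610 normalized counts in CSF1Ri, 1462, 2454 and 2434 in CD40 and 1965 and 1790 in CSF1Ri+CD40, against 3093, 1689 and 3248 in Control. Control 1 and Control 3 were above every treated library, and Control 2 lay among them. The log2 fold change was -0.43 ± 0.33 (SE) in CSF1Ri (adjusted p = 1.0, limma), -0.32 ± 0.30 in CD40 (adjusted p = 0.889, limma) and -0.45 ± 0.33 in CSF1Ri+CD40 (adjusted p = 0.925, limma). The highest library was 2.22 times the lowest, against 30.5 times for Il4, 11.9 for Il5 and 10.9 for Il13.

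Il1rl1 (ST2) had 497 and 289 normalized counts in CSF1Ri, 413, 240 and 912 in CD40 and 291 and 368 in CSF1Ri+CD40, against 206, 367 and 457 in Control. CD40 3, which also had the most Malat1, stood above all other libraries, while the rest of CD40 lay within the range of Control. The log2 fold change was 0.22 ± 0.55 (SE) in CSF1Ri (adjusted p = 1.0, limma), 0.46 ± 0.49 in CD40 (adjusted p = 0.894, limma) and 0.01 ± 0.55 in CSF1Ri+CD40 (adjusted p = 1.0, limma). Without CD40 3 the CD40 value was -0.05. The 95% intervals ran from -0.98 to 1.41 in CSF1Ri, from -0.61 to 1.53 in CD40 and from -1.19 to 1.20 in CSF1Ri+CD40. Each interval held both 0 and 1 on the log2 scale.

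Il17rb, a chain of the receptor for interleukin 25, was low and uneven. It had 95 and 0 normalized counts in CSF1Ri, 22, 0 and 14 in CD40 and 75 and 4 in CSF1Ri+CD40, against 10, 24 and 74 in Control. The highest values were in CSF1Ri 1, CSF1Ri+CD40 1 and Control 3, and the groups overlapped. Its fitted log2 fold changes had standard errors of 1.84 to 2.06, the largest of the 9 genes. Ccr4, a receptor that draws type 2 helper and regulatory T cells toward the chemokines CCL17 and CCL22, had 500 and 431 normalized counts in CSF1Ri, 418, 73 and 532 in CD40 and 472 and 222 in CSF1Ri+CD40, against 320, 593 and 844 in Control. CD40 2 held the lowest value and Control 3 the highest. The log2 fold change of Ccr4 was -0.23 ± 0.74 (SE) in CSF1Ri, -1.10 ± 0.66 in CD40 and -0.74 ± 0.74 in CSF1Ri+CD40 (smallest adjusted p = 0.816, in CD40, limma).

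Il4ra varied little. It had 961 and 724 normalized counts in CSF1Ri, 887, 548 and 988 in CD40 and 1130 and 426 in CSF1Ri+CD40, against 786, 549 and 863 in Control. Both the highest and the lowest library were CSF1Ri+CD40 libraries. Areg, a ligand of the epidermal growth factor receptor that takes part in tissue repair, had 118 and 75 normalized counts in CSF1Ri, 108, 223 and 45 in CD40 and 122 and 54 in CSF1Ri+CD40, against 135, 133 and 47 in Control. CD40 2 was the highest library, and each treated group overlapped Control. Log2 fold changes over Control ran from -0.05 to 0.21 for Il4ra and from -0.22 to 0.12 for Areg, with standard errors of 0.38 to 0.42 and 0.70 to 0.79.

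**Figure D2:**
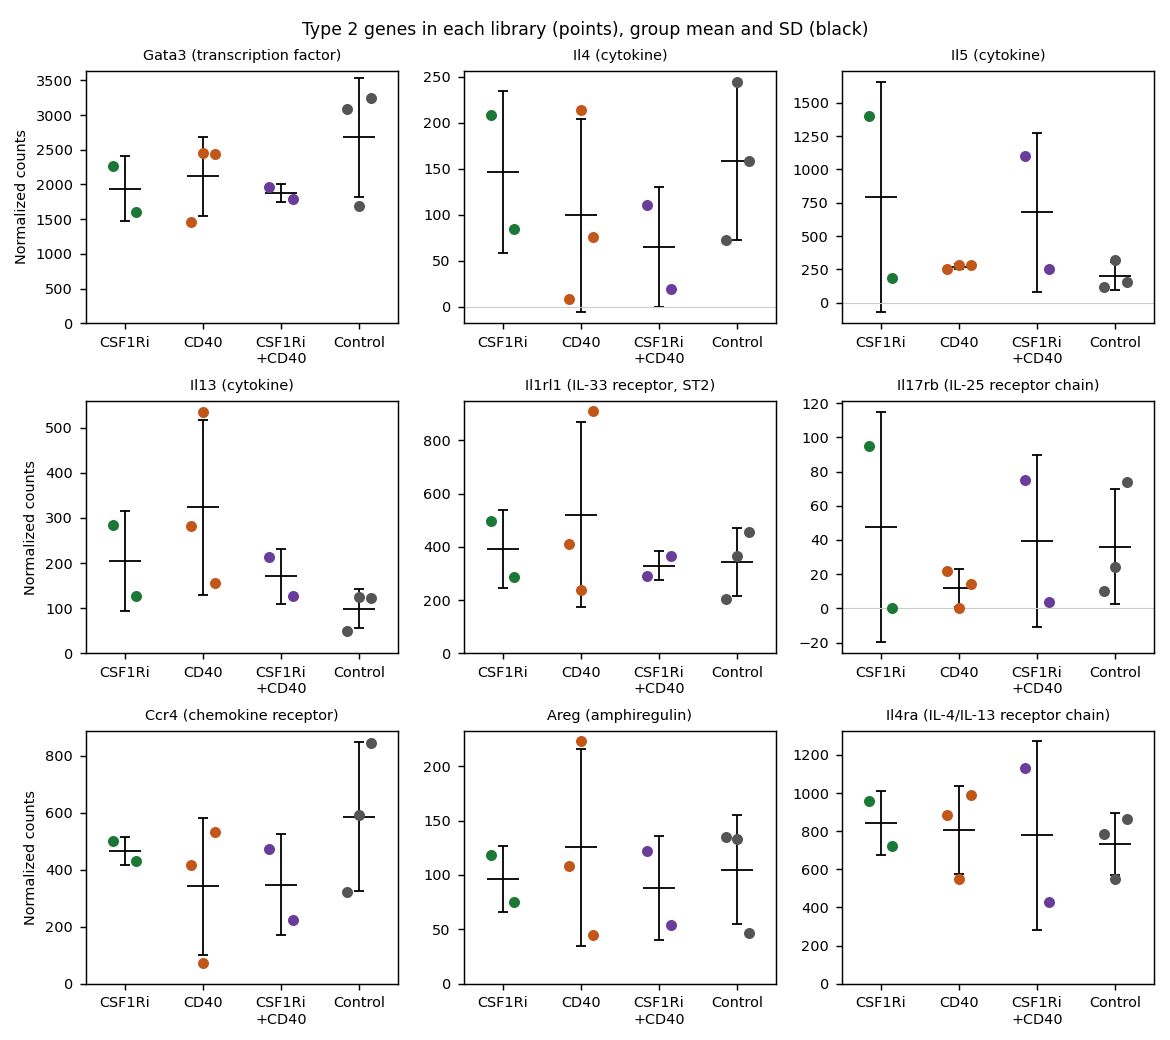
Normalized counts of the 9 genes, 1 panel per gene, with the groups on the x axis in the order CSF1Ri, CD40, CSF1Ri+CD40 and Control; points are libraries, and black bars are the group mean and SD (n = 2, 3, 2 and 3). Il13 is the only panel in which all treated points lie above all Control points, and Il5 shows 1 high library, at 1402 and 1098, in each group with the inhibitor.

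Per kilobase of annotated exon, the mean level over the 10 libraries (± SD) was 553 ± 154 normalized counts for Gata3, 283 ± 286 for Il5, 168 ± 115 for Il13, 142 ± 67.9 for Ccr4 and 131 ± 37.3 for Il4ra. It was 97.5 ± 67.7 for Il4, 87.2 ± 44.7 for Areg, 58.6 ± 29.2 for Il1rl1 and 8.58 ± 9.59 for Il17rb. Neighbors in this order overlapped in their range over libraries, except that every Il1rl1 value was above every Il17rb value. Antisense or neighboring genes overlap 9.51% of the exon bases of Il4ra, 5.83% of those of Gata3 and 3.8% of those of Il17rb.

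Of the 9 genes, 0 passed an adjusted p under 0.05 (limma) in CSF1Ri over Control, where 0.00636% of all genes did, 0 in CD40 over Control, where 0.00636% did, and 0 in CSF1Ri+CD40 over Control, where 0.0% did. At an unadjusted p under 0.05 (limma) the counts were 0, 1 and 0 of the 9, beside 4.08%, 6.39% and 5.4% of all genes. The 9 genes had a median log2 fold change of -0.01 in CSF1Ri, 0.12 in CD40 and -0.22 in CSF1Ri+CD40, beside 0.02, -0.01 and -0.00217 for all genes. In CSF1Ri+CD40 over CSF1Ri, in CSF1Ri+CD40 over CD40 and in the interaction, 0 of the 9 passed (limma), as did 0.0% of all genes. At an unadjusted p under 0.05 these counts were also 0, beside 3.58%, 4.96% and 4.17% of all genes. No member had groups without overlap in CSF1Ri+CD40 over CSF1Ri, where 16.5% of all genes were wholly above and 16.8% wholly below, or over CD40, where 8.19% and 6.84% were. The 3 comparisons with Control share the Control libraries, so their values are not independent of each other.

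**Figure D3:**
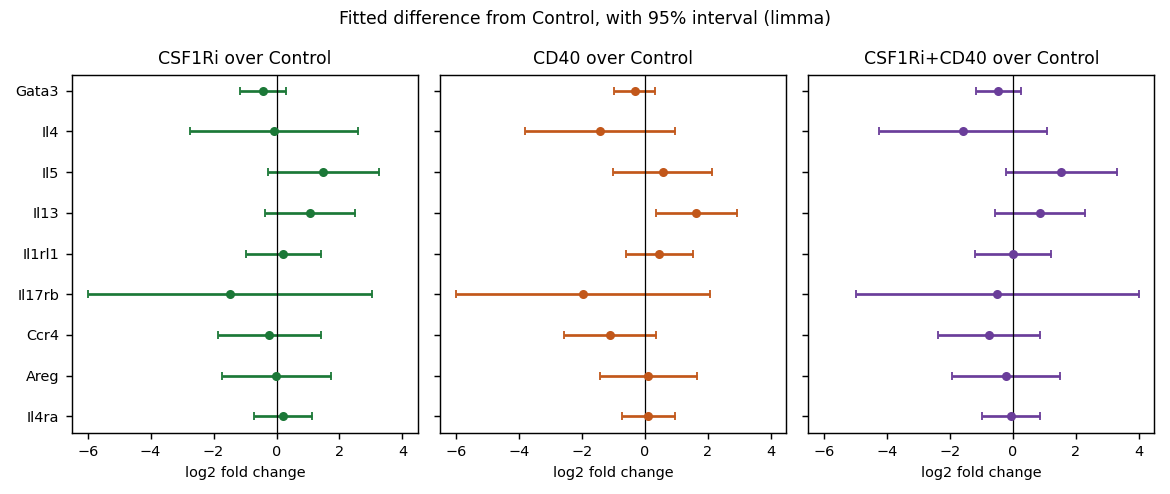
Log2 fold change over Control of each gene (points) with its 95% interval from limma, 1 panel per treatment. All intervals include 0 except that of Il13 in CD40, which ran from 0.37 to 2.92 before any adjustment for the number of genes tested.

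Libraries of the same group differed across the whole set of genes. Both groups with the inhibitor have a pair of libraries, and CSF1Ri 1 exceeded CSF1Ri 6 for 9 of the 9 genes, while 49.0% of all genes tested were higher in CSF1Ri 1. CSF1Ri+CD40 1 exceeded CSF1Ri+CD40 3 for 8 of the 9, the exception being Il1rl1, while 45.9% of all genes were higher in CSF1Ri+CD40 1. A ratio over 2 was reached by 4 and 6 members in these pairs, beside 15.5% and 16.0% of all genes. The members were not chosen on this contrast, but the pairs were singled out after their values were seen.

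Markers of other cells moved with some of these values. The 18 mast cell and basophil markers, none of them among the 9 genes, summed to 4487 and 1504 normalized counts in CSF1Ri 1 and 6, to 31052, 4288 and 5122 in CD40 1, 2 and 3, and to 14737 and 3173 in CSF1Ri+CD40 1 and 3, against 1004, 1102 and 3363 in the Control libraries. Mast cells can make interleukin 13 and carry ST2, and 12 of the 18 markers were above Control in CSF1Ri, 17 in CD40 and 13 in CSF1Ri+CD40, with median log2 fold changes of 0.93, 2.57 and 2.07. In each comparison 0 passed an adjusted p under 0.05 (limma), and 1, 9 and 6 had an unadjusted p under 0.05, beside 4.08%, 6.39% and 5.4% of all genes. The 1 in CSF1Ri, Ms4a2, was below Control, at a log2 fold change of -4.14, and those in CD40 and CSF1Ri+CD40 were above it. Cpa3, a mast cell protease, reached 4168 in CD40 1 and 2840 in CSF1Ri+CD40 1. The library with the most Il13, CD40 2, had 4288 summed counts of these markers and CD40 1, with 282 counts of Il13, had 31052. Across the 10 libraries, which share their scaling, the mean log2 level of the list correlated with Il13 at r = 0.69, with Il5 at r = 0.49, with Il1rl1 at r = 0.29 and with Il4 at r = -0.30, given as a description. The part of mast cells in the level of Il13 was not tested.

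The T cell markers were above every Control library in all treated libraries but CD40 3. They summed to 177397 and 194201 in CSF1Ri, to 185741, 208353 and 134957 in CD40 and to 186328 and 175487 in CSF1Ri+CD40, against 129367, 159813 and 141510 in Control, and their mean log2 level correlated with Il13 at r = 0.67 over the 10 libraries. With Il5 and Areg that level correlated at r = 0.45 and 0.33. It ran against the remaining members, at r = -0.60 with Gata3, -0.41 with Ccr4, -0.30 with Il17rb, -0.29 with Il1rl1, -0.21 with Il4 and -0.06 with Il4ra. The 16 regulatory T cell markers summed to 70817 to 73659 in CSF1Ri, 72245 to 92124 in CD40 and 69459 to 84179 in CSF1Ri+CD40, against 60710 to 72037 in Control. Above Control were 10 of the 16 in CSF1Ri, 10 in CD40 and 13 in CSF1Ri+CD40, and 0 passed an adjusted p under 0.05 (limma). Foxp3, 1 of the 16, did not follow the sum. It averaged 1739 ± 144 in CSF1Ri, 2006 ± 613 in CD40 and 2452 ± 313 in CSF1Ri+CD40 (SD), against 2267 ± 563 in Control. Over the 10 libraries the mean log2 level of the 16 markers correlated highest with Il5, at r = 0.60, and with Il1rl1 at r = 0.21 and Areg at r = -0.07. The 12 markers of type 2 innate lymphoid cells, most of which, such as Il7r, Icos and Thy1, T cells also express, summed to 56589 to 77023 in treated and 40584 to 62696 in Control libraries. Id2 was the largest term of that sum in every library, at 16661 to 47426 in treated and 13602 to 25708 in Control libraries. Of the 12, 7 were above Control in CSF1Ri, 4 in CD40 and 6 in CSF1Ri+CD40, with median log2 fold changes of 0.22, -0.19 and -0.03. The mean log2 level of these 12 correlated with Il4 at r = 0.63, with Ccr4 at r = 0.61, with Il4ra at r = 0.57 and with Il13 at r = -0.09. Arg1, 1 of those 12 and not a T cell gene, ran from 0 to 193. Of the 8 eosinophil markers, Ccr3, which T cells can also carry, reached 140 normalized counts, and the other 7 were at 10 or less in every library. The part of T cell content in the level of Il13 was not tested.

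Hemoglobin transcripts separated the treated libraries from Control as Il13 did, in the opposite direction. They summed to 1288 and 2695 normalized counts in CSF1Ri, to 811, 1171 and 838 in CD40 and to 13 and 474 in CSF1Ri+CD40, against 12899, 15721 and 2855 in Control. CSF1Ri 6, at 2695, lay just under Control 3, at 2855. The part of blood RNA in the level of Il13 was not tested.

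**Figure D4:**
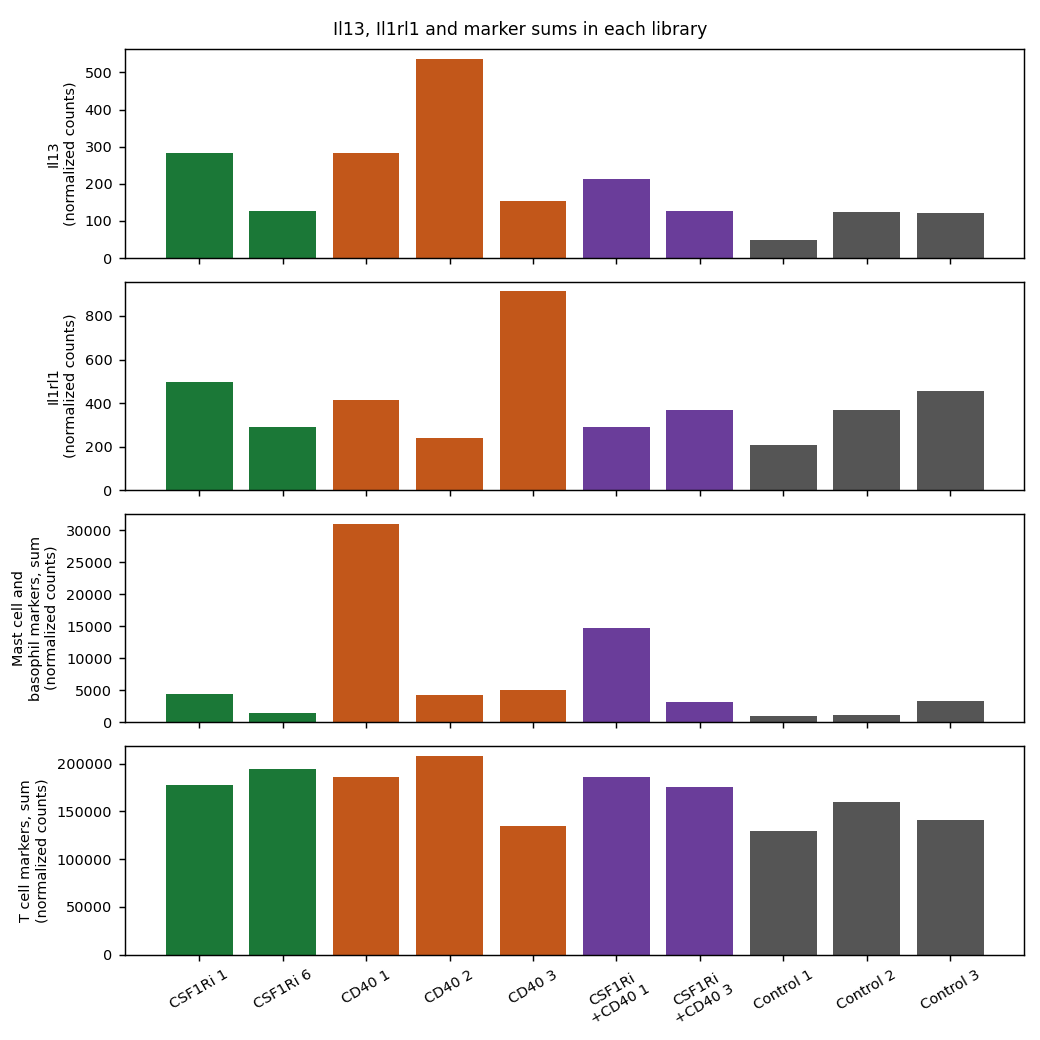
Bars are single libraries in normalized counts, colored by group, for Il13, Il1rl1, the sum of 18 mast cell and basophil markers and the sum of 18 T cell markers. Il13 peaks in CD40 2 at 535, Il1rl1 in CD40 3 at 912 and the mast cell sum in CD40 1 at 31052. The T cell sum, like Il13, peaks in CD40 2, at 208353, and that library also has the highest total of normalized counts, at 14024851.

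Of 57 other genes of the type 2 pathway, 52 were tested and 0 passed an adjusted p under 0.05 in either direction in the 3 comparisons with Control (limma). In CSF1Ri 25 were above and 27 below Control, in CD40 24 and 28, and in CSF1Ri+CD40 28 and 24. Median log2 fold changes were -0.02, -0.07 and 0.08, beside 0.02, -0.01 and -0.00217 for all genes. Among the signals that start the response, Il25, which encodes the ligand of the Il17rb receptor, was listed at 0 in all 10 libraries. Il33, the ligand of ST2, was at 66 normalized counts in CD40 1 and at 47 and 22 in Control 2 and 3, and at 0 in the other 7. Tslp, an epithelial cytokine that activates type 2 cells, was at 0 in all 4 libraries with the inhibitor and at 5, 4 and 0 in CD40, against 30, 12 and 31 in Control (unadjusted p = 0.00577 in CSF1Ri, limma). Tslp did not pass over all genes in any comparison with Control (smallest adjusted p = 0.743, in CSF1Ri+CD40, limma). Epithelial cells are a known source of Tslp, and the 11 keratinocyte markers summed to 434 and 800 in CSF1Ri, 2468, 1216 and 397 in CD40 and 748 and 3379 in CSF1Ri+CD40, against 2102, 1458 and 3054 in Control, and their part in the Tslp values was not tested.

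Among effector genes near the 9, Il9, a cytokine that promotes mast cell growth, had 99 and 0 normalized counts in CSF1Ri, 56, 159 and 556 in CD40 and 110 and 22 in CSF1Ri+CD40, against 0, 32 and 1 in Control. Every CD40 library was above every Control library for Il9, as for 4.19% of all genes tested. The log2 fold change of Il9 in CD40 was 5.41 ± 1.77 (SE), with an adjusted p = 0.707 (limma). Of the regulators, Junb, an AP-1 subunit, averaged 1450 ± 50.9 in CSF1Ri (SD, n = 2), 1647 ± 874 in CD40 (SD, n = 3) and 1694 ± 112 in CSF1Ri+CD40 (SD, n = 2), against 3664 ± 1607 in Control (SD, n = 3). Maf, a factor that activates Il4, averaged 4692 ± 246, 4909 ± 1918 and 5787 ± 267 in the same treated groups, against 9138 ± 3749 in Control. Neither passed over all genes in any comparison with Control (smallest adjusted p = 0.722 for Junb and 0.743 for Maf, limma). Stat6, which carries the signal of Il4ra, averaged 1537 ± 194, 1254 ± 339 and 1138 ± 217 in the treated groups, against 1070 ± 168 in Control. Il1rap, the partner chain of ST2, averaged 148 ± 131, 66.0 ± 30.0 and 154 ± 41.0, against 154 ± 52.7. The CCR4 ligand Ccl22 averaged 1310 ± 113, 1499 ± 734 and 2014 ± 618, against 1578 ± 1084.

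Over the 10 libraries, which come from 4 groups and share their scaling, the 9 genes did not form a single block of correlation. The highest Pearson correlations of log2 levels were 0.71 between Il17rb and Ccr4, 0.60 between Il17rb and Il4ra, 0.55 between Ccr4 and Il4ra and 0.54 between Il5 and Il13. After each group mean was removed, the highest values were 0.77 between Il1rl1 and Ccr4, 0.75 between Il5 and Il17rb, 0.74 between Il17rb and Il4ra and 0.71 between Il17rb and Ccr4, and the lowest was -0.76 between Il1rl1 and Areg. At that step the value for Il5 and Il13 was 0.63, that for Il4 and Il13 was 0.56 and that for Il4 and Il5 was 0.55. Before that step Il4 correlated with Il13 at 0.08 and with Il5 at 0.28. Gata3 correlated with Il4 at 0.46, with Il5 at -0.22 and with Il13 at -0.27. Il1rl1 and Areg ran against each other, at -0.66, with CD40 3 highest in Il1rl1 and lowest in Areg, and CD40 2 highest in Areg.

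**Figure D5:**
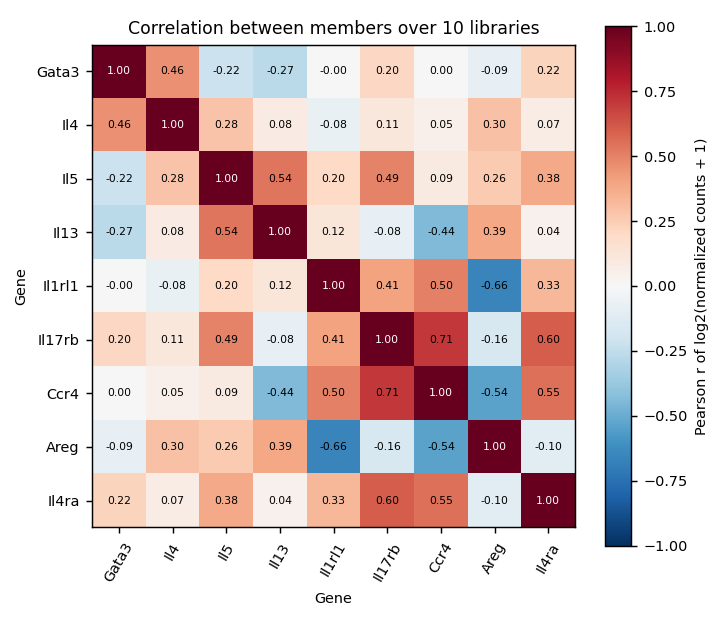
Pearson correlation of log2(normalized counts + 1) between each pair of the 9 genes over 10 libraries; both axes list the genes, and red is positive and blue negative. The strongest positive pair is Il17rb with Ccr4, at 0.71, and the strongest negative pair is Il1rl1 with Areg, at -0.66.

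Genes with the most similar pattern over the 10 libraries were sought among 8842 others with a mean of at least 100 normalized counts. The r values below are the highest of that many, so they are given as a description only. For Gata3 they included Rfx7 (r = 0.94) and Gon4l (r = 0.92). For Il1rl1 they included Dhx30 (r = 0.95) and Hook3 (r = 0.94), and both, like Il1rl1, were highest in CD40 3. For Il4ra they were Atad2 (r = 0.93), B4galt3 (r = 0.92) and Atp6v0d1 (r = 0.91). None of those named here is among the other genes of the type 2 pathway listed here.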

How the data were processed

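Bulk RNA of 10 libraries in 4 groups was analysed, grouped by the description in the labels. Per the submitters' processing notes and the labels' protocols, libraries carried no strand information, reads were aligned with STAR to GRCm38 (mm10), counted with HTSeq and normalized with DESeq2, with versions and annotation release not given in the sources used here. The deposited values are scores: counts divided by a size factor per library and rounded to whole numbers by the authors, so tools that need reads were not run.

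A gene was tested if 2 or more libraries reached 10 normalized counts, which 15716 of 48825 did. Values were put on the log2 scale after adding 1, and the 4 groups were fitted together (limma 3.58.1, R 4.3.3, variance trend on, 6 residual and 5.48 prior degrees of freedom). Tests were two-sided, with Benjamini-Hochberg adjustment over all genes of a comparison and a threshold of 0.05. The fit was tested on simulated data. Rows with a repeated name (4) were kept. Low counts limit precision, and a log2 fold change there depends on the value added. That of Il17rb in CSF1Ri was -1.48 with 1 added and -0.33 with 8 added. Exon lengths, positions and overlaps are from GENCODE vM21 on GRCm38, and promoters from RefSeq. Other steps used Python 3.11.15, pandas 2.3.3, scipy 1.17.1 and matplotlib 3.10.9.

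The 9 genes and all marker and pathway lists were chosen with earlier results of these data known. Text names all 9 genes, up to 4 genes with the smallest p of a list described, and the 3 nearest genes by correlation of Gata3, Il1rl1 and Il4ra. Some items that this covers, and an allele of the strain, are not reported here. Values of Gm12214, hemoglobin transcripts, Il33, Il25, Arg1, Ccr3, Foxp3, Stat6, Il1rap, Ccl22 and Malat1 were named outside that rule, after their values were seen. Alternatives changed the pseudocount, filter, scaling, weights, libraries and covariates.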

Additional observations from a re-analysis of the deposited data

How the results depend on the processing

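Across 20 alternatives per comparison, or fewer where one could not be fitted, the number of the 9 genes past the threshold stayed at 0 in all 6 planned comparisons. In the 3 comparisons with Control the smallest adjusted p of any member was 0.238 (limma), for Il13 in CD40 without CD40 3. Of 29 log2 fold changes, 17 kept their direction under all alternatives run, among them those of Gata3, Il5 and Il13 in all 3 comparisons with Control. For Il13 in CD40, leaving out 1 library gave 1.19 to 2.08, and in CSF1Ri and CSF1Ri+CD40 0.48 to 1.63 and 0.42 to 1.22. The mean of the treated groups, added after seeing the data, gave 0.75 to 1.41. With the replicate block, fitted on Control, CD40 and CSF1Ri+CD40 by title number, Il13 stood at 1.64 in CD40 (adjusted p = 0.823, limma) and 1.19 in CSF1Ri+CD40, and 0 members passed. Departures from group means correlated at -0.27 to 0.18 between the 7 pairs of libraries with the same number, so the numbers were not taken to pair the libraries.

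For the values that turned, the cause was not tested. In CSF1Ri, Areg turned to 0.0923 with library weights, 0.0650 with a term for Y-linked transcripts and 0.25 in libraries without them, Il4 turned to 0.26 with that term, and Il1rl1 to -0.11 in libraries without them. In CSF1Ri+CD40, Il1rl1 turned to -0.0500 with total scaling, -0.00569 with library weights, -0.18 with the replicate block, -0.0900 with the Y-linked term and -0.32 in libraries without those transcripts. There Areg turned to 0.18 with the block and 0.0364 in libraries without those transcripts, and Il4ra to 0.0117 in that same set. Leaving out 1 library gave, in CSF1Ri, -0.74 to 0.56 for Il4, -0.17 to 0.61 for Il1rl1, -4.78 to 1.81 for Il17rb, -0.61 to 0.0914 for Ccr4 and -0.51 to 0.32 for Areg. In CD40 it gave -0.0489 to 0.91 for Il1rl1, -0.43 to 0.71 for Areg and -0.0726 to 0.38 for Il4ra. In CSF1Ri+CD40 it gave -0.32 to 0.25 for Il1rl1, -2.46 to 1.47 for Il17rb, -0.80 to 0.36 for Areg and -0.75 to 0.65 for Il4ra. Where a fit left 1 library in a group, that library was assumed to vary like the others. Without CSF1Ri+CD40 1, 36 genes passed over Control (limma) in place of 0, none of them among the 9. Il17rb and Il4 had the widest intervals.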
